A study of Mus musculus with 5 samples.

Results

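Fibroblasts with transcripts of Cd248, Stmn2, Ctsk and Osr1 made up a small fraction of the cells captured from the mouse colon mesenchyme. Of 7935 deposited cell barcodes, 6005 had at least 300 genes and at most 10% mitochondrial UMIs (unique molecular identifiers, which count captured RNA molecules). A fibroblast gate of at least 2 of the 6 genes Col1a2, Col3a1, Col6a1, Col6a2, Mmp2 and Dcn kept 4436 barcodes. Of these, 167 had UMIs of at least 2 of the 4 genes Cd248, Stmn2, Ctsk and Osr1 and are called the Cd248 group. They also had to carry fewer than 2 genes of each of 3 lists that mark other fibroblasts, headed by Has1 (Has1, Pcolce2, Cilp, Gpr133, Col8a1), Ces1d (Ces1d, C1qtnf3, Serpina3n, Htra3) and Saa3 (Saa3, Niacr1, Rasl11a, Itih5). Measured transcripts therefore chose the members, and the levels of these 23 genes are given as a description, with no test.

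Fibroblasts of the gut wall lay down the collagens and microfibrils of the connective tissue and send Wnt, BMP and growth factor signals to the epithelium, to vessels and to immune cells. Cells near the epithelium and cells of the submucosa and vessel walls differ in these products, and CD34 is commonly found on the latter. Cd248 encodes endosialin, a membrane glycoprotein of stromal fibroblasts and pericytes. Stmn2 encodes a stathmin that binds tubulin and is best known from neurons. Ctsk encodes cathepsin K, a collagen-cleaving protease best known from osteoclasts, and Osr1 encodes a zinc finger transcription factor of embryonic mesenchyme. On GRCm38 with GENCODE M21, Cd248 lies on chromosome 19 from 5068078 to 5070682, Stmn2 on chromosome 3 from 8509360 to 8561606, Ctsk on chromosome 3 from 95499256 to 95509362 and Osr1 on chromosome 12 from 9570116 to 9581500, all on the plus strand.

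All cells came from untreated C57/BL6 mice aged 10 weeks, from colon mesenchyme freed of epithelium with EDTA and DTT and then dissociated with Collagenase XI and Dispase. Drop-seq captured the polyadenylated RNA of each cell on a barcoded bead, in 5 collections. Collections 1A and 1B belong to biological replicate 1, and 2A, 2B and 2C to biological replicate 2. The study thus holds 1 group of mice, with no genotype or treatment to compare, and the number of animals behind each replicate is not in the labels. Comparisons were made between groups of fibroblasts within these replicates: the Cd248 group, a Has1 group (298 barcodes), a Ces1d group (627) and a Saa3 group (208), each with at least 2 genes of its own list and fewer than 2 of the others, and the 3136 remaining gated barcodes.

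The members numbered 42, 28, 39, 27 and 31 in collections 1A, 1B, 2A, 2B and 2C. Their share of gated barcodes was 3.75% ± 0.627 (SD, n = 2 biological replicates). In replicate 1 it was 3.30% (exact Clopper-Pearson 95% interval 2.58 to 4.15%) and in replicate 2 it was 4.19% (3.41 to 5.09%), so the intervals overlap. Intervals cover counting error only. Collections held 1636550 to 3345732 UMIs in all, and the members' own sums were 156506 UMIs in replicate 1 and 135723 in replicate 2. The median member had 1384 UMIs and 785 genes, against medians of 1680 UMIs in the Has1 group, 1319 in the Ces1d group and 1810 in the Saa3 group. Only 10 barcodes occurred in more than 1 collection, and none was a member.

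The gate was broad, and the members of replicate 1 included barcodes with transcripts of other cell types. UMIs of 3 or more markers of smooth muscle, endothelium, lymphatic endothelium, neurons, mesothelium or macrophages were found in 18 of 167 members. Of these, 14 were in replicate 1, where they held 49.8% of the members' UMIs, and 4 in replicate 2, where they held 4.24%. The deepest had 22523 UMIs, and a barcode with neuronal and smooth muscle markers alone gave 32 of the 344 Stmn2 UMIs. In the remaining gated barcodes 29.3% carried 3 or more such markers, and in the Has1, Ces1d and Saa3 groups 3.36%, 5.10% and 20.2% did. Differences from the other groups are therefore given for all gated barcodes and, where tested there, also without all barcodes of this kind (the trimmed set), a choice made after seeing the data. The trimmed set holds 149 members, 56 and 93 in the replicates.

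**Figure D1:**
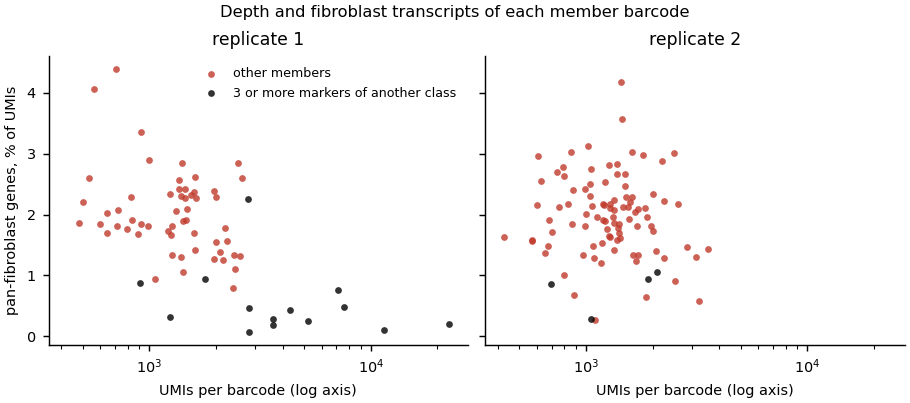
Total UMIs per member barcode (x axis, log scale) and the percentage of those UMIs from 7 pan-fibroblast genes (y axis) in each biological replicate. Black points are the 18 members with 3 or more markers of another cell type, whose median pan-fibroblast share was 0.450%, and red points the 149 others, with a median of 1.95%.

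Summed markers of other cell types are given by replicate and set. Those of endothelium, neurons and smooth muscle also chose the barcodes left out, so their fall on trimming follows from that choice. The 5 lymphatic markers summed to 3789 CPM (counts scaled to a total of 1000000 UMIs in the group's sum) in the members of replicate 1 and 29.5 CPM in replicate 2, and to 12.7 and 30.8 CPM in the trimmed set. Likewise, the 6 blood endothelial markers went from 1546 CPM in replicate 1 and 95.8 CPM in replicate 2 to 114 and 84.6 CPM on trimming. The 9 enteric neuron markers stood at 722 and 14.7 CPM before and at 25.4 and 15.4 CPM after trimming. In the members of replicates 1 and 2, the B cell markers summed to 12.8 and 0 CPM (Cd79a and Cd79b at 0), the epithelial markers to 25.6 and 0 CPM (Epcam and Cdh1 at 0) and the glial markers to 63.9 and 0 CPM (Sox10 at 0). Immunoglobulin genes are not among these markers, and Igkc had 160 and 1238 CPM and Igha 211 and 1245 CPM. Trimming left 159 UMIs of Igkc and 156 of Igha in the members of collection 2B. In the trimmed set Igkc, Igha and Igj were higher than in the Ces1d group (2.21, 2.04 and 1.42). In clustering, 1 member, of replicate 2, fell in a cluster led by Igkc. The 5 markers of interstitial cells of Cajal stood at 236 and 199 CPM, and at 165 and 200 CPM after trimming, with Kit at 0. They had 89.1 and 81.1 CPM in the Has1 group, 204 and 208 CPM in the Ces1d group and 528 and 526 CPM in the Saa3 group. Smooth muscle markers remained at 458 and 231 CPM in the trimmed members, next to 249 and 153 CPM in the Has1 group and 362 and 248 CPM in the Ces1d group. The part of these remaining transcripts in the results was not tested.

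Stmn2 was the most often detected of the 4 marker genes, in 134 of 167 members (80.2%). Cd248 was detected in 108 members (64.7%), Ctsk in 76 (45.5%) and Osr1 in 71 (42.5%). Most members met the rule narrowly: 122 carried exactly 2 of the markers, 35 carried 3 and 10 carried all 4. The commonest pair was Cd248 with Stmn2 (43 members), and Ctsk with Osr1 was the rarest (5 members). All 167 had UMIs of at least 2 of 7 pan-fibroblast genes, none of them a gate gene. The mix of markers by replicate was not tested. Stmn2 with Ctsk alone marked 4 members of replicate 1 and 20 of replicate 2. Osr1 was found in 52.4% and 60.7% of the members of collections 1A and 1B, and in 38.5%, 25.9% and 32.3% of those of 2A, 2B and 2C.

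Levels of the marker genes in the members were set by the rule and are given to show their size. Cd248 stood at 347, 722, 694, 913 and 534 CPM in the members of collections 1A, 1B, 2A, 2B and 2C, and averaged 148, 68.5 and 26.7 CPM in the Has1, Ces1d and Saa3 groups. Stmn2 stood at 1115, 956, 1589, 1153 and 1068 CPM, against means of 36.2, 120 and 167 CPM in those groups. Both genes were above all other groups in every collection, as the rule requires on the sums of such barcodes.

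Ctsk reached 174, 361, 402, 384 and 559 CPM in the members of the 5 collections and averaged 59.1, 76.9 and 36.1 CPM in the Has1, Ces1d and Saa3 groups. Osr1 reached 283, 404, 365, 264 and 381 CPM, with means of 13.3, 13.7 and 2.25 CPM in the others. Osr1 thus had the lowest level outside the members. Collection 1A was the lowest for Cd248 and Ctsk, and there the trimmed members had 718 CPM of Cd248 and 381 CPM of Ctsk.

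**Figure D2:**
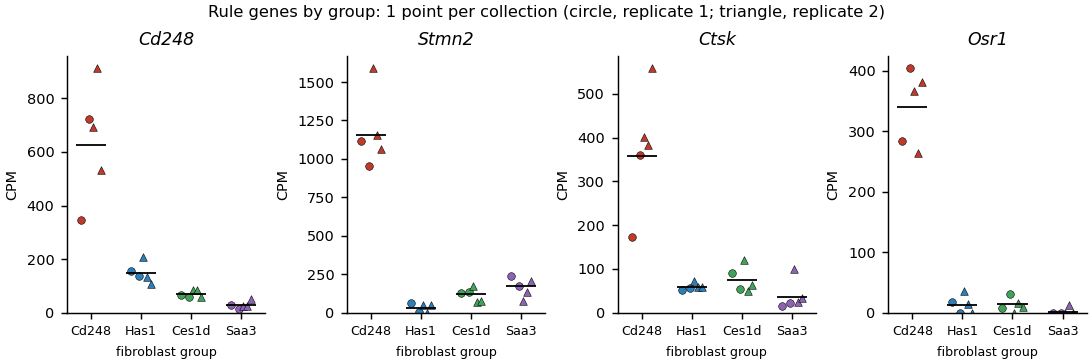
CPM (y axis) of Cd248, Stmn2, Ctsk and Osr1 in each fibroblast group (x axis), 1 point per collection, with a line at the mean of the 2 biological replicates. The members chosen on these genes lie above the 3 other groups in all 5 collections; this follows from the rule.

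Detection was also set at equal depth, because a deeper barcode is more likely to show a gene. At 700 UMIs per barcode (17 shallower members left out), Stmn2 was seen in 51.3% of members (exact 95% interval 43.0 to 59.6%), Cd248 in 33.3%, Ctsk in 27.3% and Osr1 in 20.7%. Barcodes with leukocyte markers, which had a median of 1978 UMIs before thinning, were set at the same depth. Fibroblast-gated barcodes other than members were not removed from them. Stmn2 was seen in 1.02% of them, Ctsk in 0.512%, Osr1 in 0.171% and Cd248 in 0 of 586 (which, at 3 counts of the total, allows up to 0.512%). Blood endothelial barcodes (median 2114 UMIs) showed Stmn2 in 9.92%, Cd248 in 0.775%, Osr1 in 0.930% and Ctsk in 0.310%. The Ces1d group showed Stmn2 in 5.99% and the Saa3 group in 8.87%.

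The other lists cut deeply into the barcodes with these markers. Of 391 gated barcodes with at least 2 of the 4 markers, 224 (57.3%) were left out by the other lists, 154 of them by the Ces1d list, 75 by the Saa3 list and 55 by the Has1 list, with some counted more than once. Among the members, 95 still carried 1 gene of the Ces1d list, 90 carried 1 of the Saa3 list, 47 carried 1 of the Has1 list and 31 carried none. Saa3 itself had no UMI in the members, Cilp had 1, and Ces1d had 6. C1qtnf3 (232 CPM), Htra3 (273 CPM) and Itih5 (489 CPM), all genes of the other lists, were present at lower or similar levels to those in the groups they mark (1082, 579 and 546 CPM). Barcodes just inside and just outside the threshold are described without trimming. Those outside belong to the remaining gated barcodes, of which 29.3% carried 3 or more markers of another cell type. The part of such barcodes in these levels was not tested. Clec3b stood at 918 CPM with exactly 2 markers, 344 CPM with 1 and 161 CPM with none, and Cd34 at 421, 229 and 135 CPM. Pdgfra (189, 131 and 174 CPM) and Sfrp1 (440, 316 and 362 CPM) did not follow the number of markers, and Grem1 stood at 109, 88.4 and 80.0 CPM.

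The members did not form a cluster of their own at the 1 resolution used (0.5). Gated barcodes were clustered without the rule genes and without the listed pathway genes, and 139 of 167 members (83.2%) fell in 1 of 15 clusters, led by Clec3b, Mgp, Mfap4, Edil3, Ccdc80 and Tcf21. Members were 8.76% of its 1587 barcodes. The cluster also held 71.9% of the Ces1d group, 20.2% of the Saa3 group and 15.8% of the Has1 group, whereas 79.9% of the Has1 group lay in a cluster led by Has1 and Pi16 and 53.8% of the Saa3 group in a cluster led by Nrg1 and Ptgs2. The genes left out included Mfap5, Timp3, Thy1, Tnc and Sfrp1, which differed between the members and the Ces1d group. A cluster shared with the Ces1d group therefore cannot show that the groups are alike in such genes. Members of both replicates shared the Clec3b cluster, 55 of 70 and 84 of 97. Of the 18 members with markers of another cell type, 1 was in it, and 14 lay in clusters led by smooth muscle, endothelial, lymphatic or neuronal genes.

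**Figure D3:**
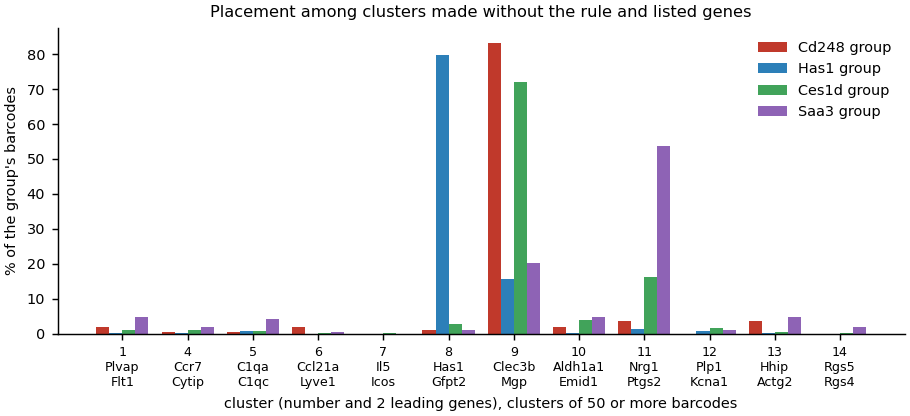
Percentage of each fibroblast group's barcodes (y axis) in each cluster of 50 or more gated barcodes (x axis, with the cluster's 2 leading genes), from clustering without the rule and listed genes. The Cd248 group (83.2%) and the Ces1d group (71.9%) share cluster 9, while the Has1 and Saa3 groups are mostly elsewhere.

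Genes outside the rule were compared on UMI counts summed per group and replicate, with edgeR's quasi-likelihood test and Benjamini-Hochberg adjustment over all genes tested. Set against the Has1, Ces1d and Saa3 groups together (the mean of their log levels), 83 genes were higher in the members (1.47% of 5665 tested) and 172 were lower (3.04%). In the trimmed set 211 were higher (4.44% of 4756) and 251 lower (5.28%). Of the 255 calls over all gated barcodes, 213 passed in the same direction in the trimmed set and 0 in the opposite one. A gene had to reach a minimum level in at least 2 sums to be tested, and 9 of the 83 and 21 of the 211 higher genes reached it through the members alone, so that they had to differ. Without them 74 and 190 were higher. Unless said otherwise, a difference below is this contrast, as log2 ± SE, first for all gated barcodes and then for the trimmed set. A ± after a CPM is the SD over the 2 biological replicates.

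Of 20 surface genes of adventitial and progenitor fibroblasts tested (21 listed), Thy1, Clec3b, Ly6a and Cd34 were higher than the mean of the 3 groups and Icam1 was lower. The median log2 difference of the list was 0.23, against 0.01 over all tested genes. Trimming gave 6 higher, with Cd9 and Entpd2 added, and 2 lower (median 0.27, against 0.01). By single group, 2 were higher and 8 lower than in the Has1 group, 1 and 0 against the Ces1d group, and 8 and 2 against the Saa3 group. Trimming made these 3 and 8, 6 and 0, and 7 and 3. Over all genes tested, 5.01% were higher and 8.93% lower than in the Has1 group (9.55% and 13% on trimming). The shares were 0.124% and 0.353% against the Ces1d group (0.967% and 1.35%), and 2.03% and 5.35% against the Saa3 group (3.51% and 7.78%). Thy1, a GPI-anchored glycoprotein of fibroblasts and T cells, had 174, 191, 256, 360 and 280 CPM in the members of collections 1A, 1B, 2A, 2B and 2C. No collection of the Has1, Ces1d or Saa3 group exceeded 93.9 CPM, so the groups did not overlap. Thy1 was higher by 2.04 ± 0.29 (adjusted p = 0.00037) and by 1.99 ± 0.33 (adjusted p = 3.2e-05). Thy1 is 1 of 6 markers listed for T and innate lymphoid cells, which summed to 211 and 309 CPM in the members of replicates 1 and 2. The 5 others summed to 31.9 and 14.7 CPM there, 12.7 and 34.1 CPM in the Has1 group, 19.3 and 30.3 CPM in the Ces1d group and 146 and 63.0 CPM in the Saa3 group, with Cd3e and Cd3d at 0 in the members. At least 2 of the 6 were found in 2.40% of members and in 0, 0.319 and 0.481% of those groups.

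Clec3b encodes tetranectin, a secreted plasminogen-binding lectin. Its levels in the trimmed members were 1257, 1702, 1510, 1382 and 1373 CPM, all above the highest collection of the Has1 (1097 CPM), Ces1d (1017 CPM) and Saa3 (346 CPM) groups. Over all members collection 1A was at 512 CPM, which lies within the range of the Has1 and Ces1d groups. The difference was 0.87 ± 0.19 (adjusted p = 0.012) and 1.06 ± 0.13 (adjusted p = 8.4e-08). Ly6a, the Sca-1 antigen of mouse progenitors, was higher by 0.68 ± 0.18 (adjusted p = 0.037) and 0.96 ± 0.15 (adjusted p = 1.4e-05).

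Cd34, a sialomucin of endothelium and of vessel-associated fibroblasts, stood at 338, 574, 603, 552 and 381 CPM in the members. It averaged 597 CPM in the Has1 group, 320 in the Ces1d group and 104 in the Saa3 group, so the members overlapped the Has1 group. The difference from the 3 groups was 0.64 ± 0.18 (adjusted p = 0.049) and 0.92 ± 0.18 (adjusted p = 0.00043). From the Has1 group alone it was -0.57 (adjusted p = 0.069) and -0.26 (adjusted p = 0.32). Icam1, an adhesion molecule for leukocytes, was lower by -1.13 ± 0.22 (adjusted p = 0.0052) and -1.13 ± 0.24 (adjusted p = 0.00085), with 240 ± 4.76 CPM in the members and 820 ± 36.6 CPM in the Saa3 group (SD, n = 2).

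**Figure D4:**
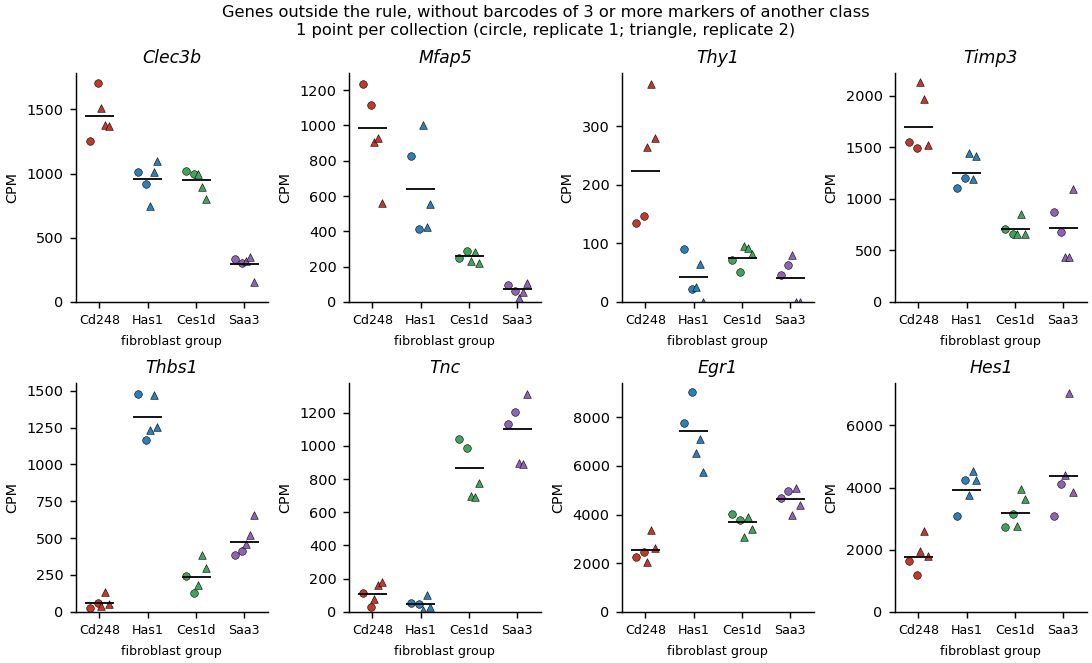
CPM (y axis) of 8 genes outside the rule in each fibroblast group (x axis) of the trimmed set, 1 point per collection, with a line at the mean of the 2 biological replicates. Clec3b, Thy1 and Timp3 of the members lie above, and Hes1 below, all collections of the 3 other groups; Mfap5, Thbs1, Tnc and Egr1 overlap with at least 1 group.

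Matrix genes moved in both directions. Of 37 tested genes of fibrils and microfibrils (40 listed), Mfap5, Postn and Loxl1 were higher and Col6a3, Tnc, Thbs1, Thbs2 and Pcolce were lower (median 0.03, against 0.01 over all genes). On trimming 7 were higher, with Fn1, Lum, Ogn and Sparc added, and 4 were lower, without Pcolce (median 0.14, against 0.01). Mfap5, a glycoprotein of elastin-associated microfibrils, had 567, 914, 877, 889 and 559 CPM in the members and means of 610, 237 and 88.4 CPM in the Has1, Ces1d and Saa3 groups. It was higher by 1.50 ± 0.18 (adjusted p = 6.4e-05) and 1.98 ± 0.18 (adjusted p = 6.8e-11). The members overlapped the Has1 group, from which the difference was 0.06 (adjusted p = 0.89) and 0.43 (adjusted p = 0.071).

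Postn encodes periostin, a matricellular protein of collagen-rich tissue. It had 1718, 3102, 3617, 3915 and 4016 CPM in the members, with collection 1A low, and 3814, 3932, 3642, 4225 and 4016 CPM in the trimmed members. The latter lay above every collection of the other groups, whose highest was 3454 CPM in the Ces1d group. The difference was 0.89 ± 0.14 (adjusted p = 0.0012) and 1.10 ± 0.10 (adjusted p = 6.8e-11). Against the Ces1d group alone Postn differed by 0.098 (adjusted p = 0.91) and 0.45 (adjusted p = 0.021). Loxl1, a lysyl oxidase that cross-links elastin, was higher by 1.08 ± 0.25 (adjusted p = 0.021) and 1.22 ± 0.25 (adjusted p = 0.00073). Of 13 basement membrane genes tested, Col15a1, a collagen at the border of basement membranes, was the only one called, higher by 1.07 ± 0.21 (adjusted p = 0.0066) and 1.45 ± 0.21 (adjusted p = 2.9e-06). Against the Ces1d group Col15a1 differed by -0.04 (adjusted p = 0.98) and 0.28 (adjusted p = 0.63).

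Thbs1, which encodes thrombospondin 1, an activator of TGF-beta, was the most reduced matrix gene with UMIs in every group. The members had 54.8, 63.7, 36.5, 120 and 50.8 CPM, below every collection of the Has1 (1125 to 1379 CPM), Ces1d (122 to 384 CPM) and Saa3 (299 to 525 CPM) groups. It was lower by -3.10 ± 0.28 (adjusted p = 5.1e-06) and -3.31 ± 0.31 (adjusted p = 2.9e-10). In the trimmed set collection 2B of the members (133 CPM) overlapped the Ces1d group. Thbs2, its paralogue, had 0 UMIs in the trimmed members, against means of 37.0, 65.0 and 50.3 CPM in the other groups.

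Tnc encodes tenascin C, a matrix protein of the tissue beneath the epithelium. The members had 54.8, 85.0, 73.1, 192 and 178 CPM. The Ces1d group averaged 799 ± 170 CPM and the Saa3 group 707 ± 45.6 CPM (SD, n = 2), while the Has1 group had 56.4 ± 16.8 CPM, so the members stood nearer to the Has1 group (differences of 0.66, adjusted p = 0.34, and 1.20, adjusted p = 0.045). From the 3 groups the difference was -1.78 ± 0.31 (adjusted p = 0.0025) and -1.73 ± 0.29 (adjusted p = 5e-05). Against the Ces1d group alone Tnc was lower by -3.08 (adjusted p = 1.4e-05) and -2.96 (adjusted p = 6.7e-11).

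Among proteases and their inhibitors, 24 were tested of 26 listed. Timp3 was higher, and Adamts1 was among the 2 that were lower (median -0.32, against 0.01). With trimming 6 were higher, with Timp2, Adamts2, Adamdec1, Ctsd and Serpine2 added, and 3 were lower, Adamts1 and Plat among them (median -0.15, against 0.01). Timp3, a matrix-bound inhibitor of metalloproteinases, had 2093, 2082, 2083, 1825 and 1525 CPM in the members, above every collection of the other groups, of which the highest was 1462 CPM in the Has1 group. It was higher by 0.85 ± 0.12 (adjusted p = 0.00039) and 0.90 ± 0.12 (adjusted p = 6.6e-07). Adamts1, an aggrecan- and versican-cleaving protease, averaged 559 ± 113 CPM in the members and 2549 ± 436 CPM in the Has1 group (SD, n = 2). It was lower by -1.12 ± 0.18 (adjusted p = 0.0013) and -1.38 ± 0.17 (adjusted p = 7.8e-08), and differed from the Ces1d group by -0.01 (adjusted p = 1) and -0.06 (adjusted p = 0.94).

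Lists of signals to the epithelium were short, with at most 5 genes tested in each. Over all genes tested 1.47% were higher and 3.04% lower, so 0 or 1 call in such a list is not set apart from that share. Of 5 BMP ligands tested, Bmp4 was higher by 0.72 ± 0.19 (adjusted p = 0.043) and 0.93 ± 0.14 (adjusted p = 9.1e-06). The members had 402, 850, 1443, 1177 and 864 CPM of Bmp4, against 168 ± 34.5 CPM in the Has1 group, 1019 ± 17.3 CPM in the Ces1d group and 589 ± 147 CPM in the Saa3 group. The difference from the Has1 group passed (2.13, adjusted p = 3.6e-05, and 2.54, adjusted p = 4.7e-13). Those from the Ces1d group (-0.40, adjusted p = 0.56, and -0.06, adjusted p = 0.91) and the Saa3 group (0.43, adjusted p = 0.31, and 0.31, adjusted p = 0.27) did not pass. Bmp2 was lower in the trimmed set only, by -0.93 ± 0.29 (adjusted p = 0.03), and by -0.95 ± 0.27 (adjusted p = 0.056) over all barcodes.

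No gene passed among 4 Wnt ligands and R-spondins, 3 Wnt antagonists, 5 BMP antagonists and 4 EGF-family ligands tested over all gated barcodes. In the trimmed set the BMP antagonist Nbl1 was lower. Sfrp1, a secreted Wnt antagonist, stood at 210, 404, 694, 456 and 457 CPM in the members and at 1128 ± 154 CPM in the Ces1d group. It was lower than in the Ces1d group by -1.56 (adjusted p = 0.0058) and -1.18 (adjusted p = 2.9e-05). Grem1, a BMP antagonist of cells near crypt bases, averaged 114 ± 26.0 CPM in the members and 328 ± 1.88 CPM in the Ces1d group. Its difference from the Ces1d group was -1.63 (adjusted p = 0.053) and -1.42 (adjusted p = 0.0087). Wnt2b was at 48.6 ± 14.6 CPM in the members and 56.0 ± 9.33 CPM in the Ces1d group.

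Of the 5 IGF-binding proteins tested, Igfbp5 and Igfbp4, which bind IGFs outside cells, were higher (median 0.25, against 0.01). Trimming gave 3 higher, with Igfbp7 added (median 0.38, against 0.01). Igfbp5 was higher by 0.97 ± 0.20 (adjusted p = 0.009) and 0.99 ± 0.19 (adjusted p = 0.00026), and Igfbp4 by 0.73 ± 0.19 (adjusted p = 0.041) and 0.90 ± 0.16 (adjusted p = 0.00013). Both stood close to the Ces1d group, with 568 ± 0.945 against 723 ± 88.9 CPM for Igfbp5 and 766 ± 188 against 779 ± 73.7 CPM for Igfbp4. Among 28 other growth factors and receptors tested of 41 listed, Ctgf, a matricellular target of TGF-beta and YAP, was the only call. It was higher by 0.92 ± 0.22 (adjusted p = 0.027) and 1.14 ± 0.23 (adjusted p = 0.00052). Against the Ces1d group alone, no gene of this list passed in either set, Ctgf included. Pdgfra, the PDGF receptor of gut mesenchyme, had 82.2, 85.0, 219, 360 and 280 CPM in the members, lower in both collections of replicate 1 than in those of replicate 2. It did not pass (-0.48 ± 0.31, adjusted p = 0.43, and -0.48 ± 0.25, adjusted p = 0.25).

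Of 19 chemokines and cytokines tested (30 listed), Cxcl1, Cxcl2, Ccl2, Ccl7 and Il6 were lower in the members, Il7 was higher and 13 did not pass (median -0.91, against 0.01). Ccl11 and Cxcl10 joined in the trimmed set, giving 7 lower and 0 higher (median -0.74, against 0.01). By single group, 4 were higher and 7 lower than in the Has1 group in both sets. None was higher and 1 was lower than in the Ces1d group (5 lower on trimming), and 0 and 6 against the Saa3 group (8 lower on trimming). Over all genes tested, 5.01% were higher and 8.93% lower than in the Has1 group (9.55% and 13% on trimming). The shares were 0.124% and 0.353% against the Ces1d group (0.967% and 1.35%), and 2.03% and 5.35% against the Saa3 group (3.51% and 7.78%). Cxcl1, a neutrophil attractant, varied in the members from 274 CPM (2A) to 1550 CPM (2C), with 1106, 276 and 336 CPM in 1A, 1B and 2B. It averaged 2827 ± 268, 1266 ± 59.5 and 2541 ± 649 CPM in the Has1, Ces1d and Saa3 groups, and the members overlapped the Ces1d and Saa3 groups. It was lower by -1.59 ± 0.17 (adjusted p = 3.2e-05) and -2.08 ± 0.18 (adjusted p = 2.4e-11). Ccl2, a monocyte attractant, was lower by -1.57 ± 0.29 (adjusted p = 0.0034) and -1.69 ± 0.27 (adjusted p = 1.8e-05), with 132 ± 93.2 CPM in the members and 918 ± 47.5 CPM in the Has1 group. Il7 was the only gene of the list to pass the filter on low counts through the members alone, and it was not tested in the trimmed set, where it averaged 46.0 ± 11.1 CPM.

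Of 9 complement genes tested (15 listed), C4b and Cd55 were higher, C3 was lower and 6 did not pass (median -0.07, against 0.01). In the trimmed set the same 3 passed of 7 tested (median 0.04, against 0.01). C4b, a component of the classical pathway, was higher by 1.28 ± 0.30 (adjusted p = 0.023) and 1.56 ± 0.24 (adjusted p = 1.1e-05). Against the Ces1d group alone C4b did not pass in either set. Cd55, which protects cells from complement, was higher by 0.87 ± 0.19 (adjusted p = 0.015) and 0.98 ± 0.17 (adjusted p = 0.00011). It had 567 ± 125 CPM in the members, 1098 ± 167 in the Has1 group, 310 ± 19.4 in the Ces1d group and 64.8 ± 21.7 in the Saa3 group (SD, n = 2), which put the members between the Has1 and Ces1d groups. C3, the central component, was seen in the members of collections 1A (91.4 CPM) and 1B (21.2 CPM) and had 0 UMIs in 2A, 2B and 2C. The Has1 group averaged 868 ± 262 CPM of C3. The difference was -2.27 ± 0.53 (adjusted p = 0.021) and -5.29 ± 0.73 (adjusted p = 1.5e-06). Trimming left 22.4 CPM in collection 1A and none elsewhere.

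Transcription factors of the mesenchyme gave no higher calls over all gated barcodes, and Ebf1, Sox9, Twist2 and Klf6 were lower among 23 tested of 45 listed (median -0.24, against 0.01). Tcf21 was higher in the trimmed set, by 0.86 ± 0.19 (adjusted p = 0.0018), and 6 were lower (median -0.37, against 0.01). Ebf1, a factor of B cells and adipogenic stroma, had 33.9 ± 6.27 CPM in the members and 487 ± 23.1 CPM in the Has1 group, and differed from the Ces1d group (35.3 ± 1.40 CPM) by -0.15 (adjusted p = 0.96) and -0.74 (adjusted p = 0.79). Twist2 had 0 UMIs in the members, with means of 47.3, 23.9 and 20.8 CPM elsewhere.

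Hes1, a target of Notch signalling, was lower in the members than in all groups. The members had 1709, 1317, 1882, 2810 and 1779 CPM, and the means of the Has1, Ces1d and Saa3 groups were 3820 ± 512, 3113 ± 339 and 3873 ± 813 CPM. The difference was -1.07 ± 0.12 (adjusted p = 4.4e-05) and -1.18 ± 0.11 (adjusted p = 2.7e-10). Hhip, a Hedgehog-binding membrane protein, was higher over all gated barcodes (1.60 ± 0.35, adjusted p = 0.015). It led the smooth muscle cluster, and without the 18 barcodes it had 30.8 ± 43.5 CPM in the members and did not pass (1.05 ± 0.83, adjusted p = 0.48). Among lipid genes, 14 tested of 22 listed, the phospholipid transfer protein gene Pltp was higher by 0.77 ± 0.21 (adjusted p = 0.046) and 1.04 ± 0.20 (adjusted p = 0.00044). Cebpb, a factor of adipogenesis and inflammation, was lower by -1.21 ± 0.18 (adjusted p = 0.00082) and -1.19 ± 0.17 (adjusted p = 3.3e-06). Ptgs2, the inducible cyclooxygenase, was lower by -1.13 ± 0.28 (adjusted p = 0.034) and -1.09 ± 0.24 (adjusted p = 0.0019). Against the Ces1d group alone, none of Pltp, Cebpb and Ptgs2 passed in either set.

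Heat-shock and immediate-early genes are known to be switched on by stimulation and by tissue dissociation. Of 22 tested, 11 were lower in the members, 1, Hspb1, was higher and 10 did not pass (median -0.66, against 0.01). Trimming gave 15 lower and 0 higher (median -0.81, against 0.01). By single group, 2 were higher and 9 lower than in the Has1 group in both sets. None was higher than in the Ces1d or Saa3 group, with 2 and 14 lower, and 10 and 18 on trimming. Over all genes tested, 5.01% were higher and 8.93% lower than in the Has1 group (9.55% and 13% on trimming). The shares were 0.124% and 0.353% against the Ces1d group (0.967% and 1.35%), and 2.03% and 5.35% against the Saa3 group (3.51% and 7.78%). The list held 2.73% ± 0.294 of the members' UMIs, 3.53% ± 0.188 in the Has1 group, 3.69% ± 0.0553 in the Ces1d group and 3.93% ± 0.116 in the Saa3 group (SD, n = 2). Egr1 had 2147, 2294, 2064, 3266 and 2618 CPM in the members and means of 7161, 3703 and 4018 CPM in the others. It was lower by -1.09 ± 0.15 (adjusted p = 0.00022) and -1.09 ± 0.11 (adjusted p = 5.2e-10).

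Junb had 1654, 1062, 1224, 1369 and 1678 CPM in the members, below every collection of the other groups, whose lowest was 1811 CPM in the Ces1d group. It was lower by -1.01 ± 0.12 (adjusted p = 5.3e-05) and -1.19 ± 0.12 (adjusted p = 9.7e-10). Jun was lower by -0.68 ± 0.11 (adjusted p = 0.0018) and -0.81 ± 0.10 (adjusted p = 8.4e-08), and Fos did not pass (-0.24 ± 0.14, adjusted p = 0.37, and -0.26 ± 0.10, adjusted p = 0.1). Several lower genes of other lists, among them Cxcl1, Il6, Ptgs2 and Thbs1, are themselves inducible early genes. The part of the cells' response to dissociation in these differences was not tested.

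**Figure D5:**
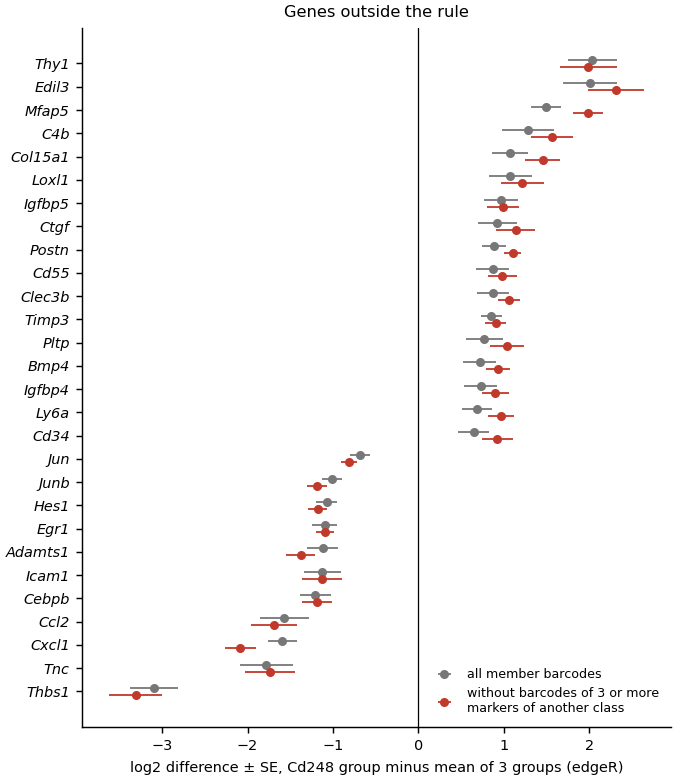
Fitted log2 difference ± SE (x axis) of the members from the mean log level of the Has1, Ces1d and Saa3 groups for 28 genes outside the rule (y axis), for all member barcodes (grey) and for the trimmed set (red). The 17 genes above Jun are higher and the 11 from Jun down are lower in both sets, from 2.04 for Thy1 to -3.10 for Thbs1 over all barcodes.

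Beyond the lists, the 14 genes with the largest higher differences against all 3 groups and in both replicates were Pianp, Alcam, Il7, Rabl5, Clns1a, Top2a, S100a4, Dnajc24, Sdc3, Ndufaf4, Ing4, Thy1, Edil3 and Pgm5. Of these, 8 (Pianp, Il7, Rabl5, Clns1a, Dnajc24, Sdc3, Ndufaf4 and Pgm5) reached the filter through the members alone, and their values are given with no test. Among the 6 others S100a4, Ing4, Thy1 and Edil3 also passed in the trimmed set. Pianp, a membrane ligand of the PILR-alpha receptor, had 27.4, 127, 91.3, 96.1 and 76.2 CPM in the members and at most 34.6 CPM in any collection of the other groups. Only collection 1A overlapped the other groups.

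Edil3, an integrin-binding matrix protein, had 128, 127, 164, 144 and 254 CPM in the members and at most 121 CPM in any collection of the other groups. It was higher by 2.01 ± 0.32 (adjusted p = 0.0011) and 2.31 ± 0.33 (adjusted p = 2.3e-06), but differed from the Ces1d group (110 ± 1.07 CPM) by 0.40 (adjusted p = 0.68) and 0.88 (adjusted p = 0.12). S100a4, a calcium-binding protein of motile fibroblasts and leukocytes, had 45.7, 85.0, 128, 240 and 153 CPM in the members. It was higher by 2.13 ± 0.45 (adjusted p = 0.011) and 2.32 ± 0.46 (adjusted p = 0.00054), and lower in both collections of replicate 1 than in those of replicate 2. Sdc3, a heparan sulphate proteoglycan, had 57.5 and 103 CPM in the replicates of the members and 3.18 to 32.2 CPM in those of the Has1, Ces1d and Saa3 groups.

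Alcam, Uchl1 and Top2a were higher over all barcodes and fell below the filter in the trimmed set. Alcam, an adhesion molecule, had 164 CPM in collection 1A and 0 to 42.5 CPM in the other 4, and averaged 20.4 ± 7.10 CPM in the trimmed members. Uchl1, a neuronal ubiquitin hydrolase, had 329 CPM in collection 1A and 0 in all others, and 0 UMIs after trimming. Top2a, a marker of dividing cells, was seen in collections 1A, 2B and 2C (119, 168 and 25.4 CPM) and after trimming in 2B and 2C alone (186 and 25.4 CPM). Trimmed, the 14 genes named by the same rule added Med8, Smarca1, Ddah1, Gstp2, Entpd1, Ddx55 and Snapc5, of which Entpd1 and Snapc5 did not reach the filter through the members alone. Entpd1, the ectonucleotidase CD39, was higher by 2.20 ± 0.45 (adjusted p = 0.00061), with 115 ± 0.688 CPM against 12.1, 54.2 and 19.7 CPM.

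The 14 lower genes named in the same way were AI607873, Gla, Plek, Thbs1, Mnda, H2-Eb1, Cxcl2, H2-Aa, Fosl1, Smim3, Il6, Mbd1, H2-Ab1 and Sox9. The MHC class II genes among them, which present antigen on macrophages, dendritic cells and B cells, were high in barcodes removed from the other groups. H2-Aa averaged 40.3 ± 15.3 CPM in the members and 632 ± 54.2 CPM in the Saa3 group, which fell to 69.8 CPM on trimming. Its difference was -2.78 ± 0.43 (adjusted p = 0.00094) over all barcodes and -1.63 ± 0.70 (adjusted p = 0.14) in the trimmed set. Plek, Mnda, H2-Eb1, Mbd1 and AI607873 also no longer passed. Gla, a lysosomal galactosidase, remained lower (-3.42 ± 0.68, adjusted p = 0.0067, and -3.69 ± 0.88, adjusted p = 0.0038), as did Fosl1, an AP-1 subunit (-2.68 ± 0.52, adjusted p = 0.0062, and -3.70 ± 0.71, adjusted p = 0.00031). The rule added Thbs2, Dll1, Gas1, C3, Aff1, Pqlc1, Nab1, Slc2a1, Ccl7 and Plk3 in the trimmed set.

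The Ces1d group was closest to the members by the number of calls. Outside the rule, 7 genes were higher in the members (0.124% of 5665) and 20 lower (0.353%), and in the trimmed set 46 (0.967% of 4756) and 64 (1.35%). Against the Has1 group 284 were higher (5.01%) and 506 lower (8.93%), and on trimming 454 (9.55%) and 616 (13.0%). Against the Saa3 group 115 were higher (2.03%) and 303 lower (5.35%), and on trimming 167 (3.51%) and 370 (7.78%). These counts share the members and rest on groups of unequal depth, and the differences between them were not tested. The 3136 remaining gated barcodes, a mixture, gave 162 higher (2.86%) and 311 lower (5.49%), and on trimming 186 (3.91%) and 339 (7.13%).

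The 7 genes higher than in the Ces1d group, named after their values were seen, were Mfap5, Timp3, Thy1, S100a4, Cav1, Hhip and Tac1, of which the first 5 passed in the trimmed set as well. Mfap5 was higher than in the Ces1d group by 1.53 (adjusted p = 0.00072) and 1.90 (adjusted p = 1.3e-09), with 730 ± 83.1 CPM against 237 ± 1.42 CPM. S100a4 was higher by 3.05 (adjusted p = 0.012) and 3.42 (adjusted p = 0.00012), with 113 ± 79.2 CPM against 12.4 ± 2.40 CPM. Cav1, the caveola coat protein, was higher by 1.11 (adjusted p = 0.041) and 1.15 (adjusted p = 0.013). Tac1, the substance P precursor of enteric neurons, had 716 CPM in the members of replicate 1 and 0 in replicate 2, and 0 UMIs in the trimmed members. In the trimmed set, Cd34, Ly6a, Clec3b, Cd55, Cd9, Loxl1 and Fn1 were also higher than in the Ces1d group, by 0.57 (Clec3b) to 1.13 (Cd55).

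Among the 20 genes lower than in the Ces1d group were Tnc, Sfrp1, Thbs1, Hes1, Adamdec1, Gpx3 and Ccl11, named after their values were seen. Adamdec1, a metalloproteinase of gut fibroblasts and macrophages, stood at 987, 850, 2813, 1993 and 3991 CPM in the members, lower in both collections of replicate 1 than in those of replicate 2. The trimmed members had 2266, 1115, 2906, 2152 and 3991 CPM, with collection 1A above 2B. The Ces1d group had 4976 ± 357 CPM over all gated barcodes. Adamdec1 was lower than in that group by -1.59 (adjusted p = 0.0058) and -1.22 (adjusted p = 1.2e-07). Gpx3, a secreted glutathione peroxidase, had 326 and 413 CPM in the replicates of the members and 1412 CPM in the Ces1d group (-2.03, adjusted p = 1.4e-05, and -1.82, adjusted p = 1.3e-09). Ccl11, the eosinophil attractant eotaxin, had 6.39 and 36.8 CPM against 189 CPM (-3.28, adjusted p = 0.0019, and -2.94, adjusted p = 6.3e-05).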

How the data were processed

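Drop-seq libraries of 5 collections from 2 biological replicates were analysed. The deposited tables hold raw UMI counts per gene and barcode. The submitters' processing notes name STAR 2.6 and mm10. The program that counted and its annotation are not given in the sources used here. Overlapping genes could not be told apart.

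Of the barcodes, 1263 had under 300 genes and 667 more had over 10% mitochondrial UMIs. No doublet caller was run, and the alternatives that leave out barcodes with markers of another class bear on doublets. UMIs were summed per group and replicate and tested with edgeR 4.0.16 in R 4.3.3 (filterByExpr, which asked for 33.96 CPM in at least 2 sums, or 39.62 in the trimmed set; TMM; quasi-likelihood F test, two-sided; replicate block; threshold 0.05; 4 residual degrees of freedom). All 5 groups shared the spread. CPM is a count scaled to a total of 1000000 UMIs in a sum. The block was used because sums with the same number come from the same suspension (10 pairs, deviations correlated at 0.00582 to 0.334). On simulated data for the main contrast (5549 genes), 56 of 100 genes changed 2-fold and 97 of 100 changed 4-fold were called, with 8 of 5349 unchanged genes. The simulation gave all genes the same dispersion (0.01429) and held no replicate effect and no barcodes of other cell types. Its rates therefore need not hold for these data. Clusters used scanpy 1.11.5 (2000 variable genes, 30 components, 15 neighbours, resolution 0.5).

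The members and gene lists were chosen with earlier results of these data known. Genes named were those of the rule, the 14 largest calls in each direction with one sign in both replicates and against all 3 groups and at least 50 CPM, and up to 5 per list with the smallest adjusted p. Some genes of the lists are counted but not reported here by name. Group and test used the same barcodes. Replicates may hold 1 or more animals. The replicate block takes out shifts that all groups of a replicate share. The p-values therefore measure how group differences vary between these 2 replicates, with the spread pooled over the 5 groups. They do not measure the spread between animals. The 5 collections were also summed separately.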

Additional observations from a re-analysis of the deposited data

Results flagged for a closer look

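The share of gated barcodes and the named genes, 33 items in all, were tested for a collection that stands apart from the other 4. Of these, 5, all genes, did so in the members, and chance gives about 1 in 20. Alcam was high in collection 1A at 164 CPM, with 22.4 CPM there in the trimmed members. Ndufaf4, a mitochondrial complex I assembly factor, was low in 2A at 18.3 CPM, with 63.7 to 76.2 CPM elsewhere. Sox9 was high in 2A at 54.8 CPM, with 18.3 to 25.4 CPM elsewhere. AI607873 was seen in 1B alone at 21.2 CPM, and Mnda in 2B alone at 48.0 CPM, each from at most 2 UMIs. The values of Ndufaf4 and Sox9 also rest on a few UMIs in most collections. The rate of 1 in 20 need not hold for such counts.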

How the results depend on the processing

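Counts of higher and lower genes depended on the settings more than the direction of named genes did. Against the mean of the 3 groups, higher calls moved from 83 to 146 with no filter on low counts, 44 with no replicate block, 157 with sums per collection, 188 without barcodes of 2 or more markers of another class and 211 in the trimmed set. Lower calls moved from 172 to 264 without barcodes of 2 or more such markers, to 85 with each barcode's UMIs divided at random into 2 parts, 1 for the rule and 1 for the sums, and to 93 with each barcode thinned to 700 UMIs. Against the Has1 group, higher calls were 154 with at least 3 of the 4 markers, 154 with divided UMIs, 174 with thinning and 454 in the trimmed set, and lower calls were 237 with divided UMIs and 230 with thinning. Against the Ces1d group, the 7 higher and 20 lower calls became 56 and 88 with no filter, 12 and 32 with DESeq2, 30 and 59 with sums per collection, 25 and 79 with at least 3 markers, 43 and 72 without barcodes of 2 or more markers of another class, 34 and 41 with thinning, and 46 and 64 in the trimmed set. With no replicate block the lower calls numbered 10. Against the Saa3 group, higher calls were 68 with no replicate block, 223 with sums per collection and 61 with thinning, and lower calls 182 with divided UMIs and 114 with thinning. Against the remaining gated barcodes, higher calls were 102 with no replicate block and 102 with thinning, and lower calls 579 with no filter, 182 with DESeq2, 201 with divided UMIs and 137 with thinning. The causes of these shifts were not tested. Without the replicate block, 171 of the 255 calls of the main contrast kept their direction and passed. The number was 104 with divided UMIs (30 not tested), 105 with thinning (54 not tested), 120 without collection 1B and 213 in the trimmed set, and 0 were opposite in these.

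Leaving out each collection in turn gave 34 (without 1B) to 115 higher and 95 (without 1B) to 157 lower calls in the main contrast. Without 2A it gave 39 and 112. The ranges were 158 to 278 and 298 to 442 against the Has1 group, 4 to 25 and 13 to 37 against the Ces1d group, 46 to 192 and 191 to 360 against the Saa3 group, and 45 to 251 and 154 to 367 against the remaining barcodes. The share of gated barcodes in the Cd248 group ranged from 3.54% to 3.92%. It was 1.01% with at least 3 of the 4 markers, 4.55% without barcodes of 2 or more markers of another class and 3.12% with divided UMIs. Direction turned for Top2a (-6.43) and Uchl1 (-6.77) with at least 3 of the 4 markers, for Uchl1 without replicate 1 (-2.28, against 4.73 without replicate 2), and for Hspb1 (-0.014) with thinning. No other named gene that passed over all gated barcodes turned under the alternatives run, while genes that had not passed, Grem1 and Sfrp1 among them, changed sign under at least 1. Results that no longer passed numbered 14, 31, 25, 10 and 14 without collections 1A, 1B, 2A, 2B and 2C, 22 with divided UMIs, 19 with at least 3 markers, 16 with thinning, 15 with no replicate block, 9 in the trimmed set, 8 without barcodes of 2 or more markers of another class, 7 with a minimum of 500 genes, and 1 each with DESeq2, no filter, sums per collection and at most 20% mitochondrial UMIs, counted over the named genes that could be fitted.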
